A study of Homo sapiens with 6 samples.

Results

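The claudins described here are 10 genes of the tight junction, namely CLDN1, CLDN2, CLDN3, CLDN4, CLDN7, CLDN10, CLDN12, CLDN15, CLDN18 and CLDN23. They were listed by symbol, and each was found in the expression table under exactly that symbol, so that 10 of the 25442 genes in the table are members. All 24 claudin genes of the table are used where the claudins are compared with each other. RNA-seq was performed on 6 libraries of YAPC, a human pancreatic ductal adenocarcinoma (PDA) cell line, to study which genes follow the expression of GLI2, a transcription factor of the Hedgehog pathway. The 3 iGLI2 libraries came from cells carrying the retroviral plasmid pRetroX-Tight-Puro with GLI2, and the 3 iEV libraries came from cells carrying the same plasmid without an insert (empty vector, EV). Both groups also carried the rtta transactivator, and both received doxycycline (Dox) in full growth media for 6 days, so Dox itself does not separate them. GLI2 was driven by the Dox-responsive promoter of the vector and not by its own. The labels do not say whether each line was a clone or a pool, or whether the libraries of a group came from separate cultures, so the p-values below measure the spread between these libraries, which may be technical. The titles carry sample codes, 1A, 1B and 2A in iEV and 1A, 1B and 2B in iGLI2, whose meaning the labels do not give, and a fit with the digit of the code as a block was run as an alternative.

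Claudins are small membrane proteins that span the cell membrane several times and bind the claudins of the neighbouring cell, which builds the strands of the tight junction. Some of them seal the space between epithelial cells, and others form pores through which ions and water pass, so the mixture of claudins in a cell sets how leaky its epithelium is. Pancreatic duct cells and the cancers that resemble them are rich in CLDN4 and CLDN7, and CLDN18 is a stomach claudin that many pancreatic cancers also carry.

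Levels were deposited as FPKM, a fragment count adjusted both for how long the transcript is and for how many fragments were mapped, so that levels of different genes can be set side by side. Differences were tested with limma on log2(FPKM + 1), with Benjamini-Hochberg adjustment over the 12493 genes whose mean over the 6 libraries was at least 1 FPKM, and a gene is called when its adjusted p is under 0.05. Fold changes on this scale understate the change of genes with low FPKM. The number of reads per library is unknown from FPKM. An exact permutation test of 3 against 3 libraries cannot go below 0.1, so single genes were judged by the fit across all genes.

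The targeted gene separated the groups. GLI2, on chromosome 2 of hg19 (121554867 to 121750229), was at 0.466, 0.412 and 0.344 FPKM in the iEV libraries and at 94.5, 207 and 195 FPKM in the iGLI2 libraries. The library iGLI2 replicate 1 had the lowest GLI2 of its group, and it also stood apart over the table. In that library 11.7% of the 12159 tested genes other than small RNAs lay more than 0.5 log2 units from the mean of the other iGLI2 libraries, whereas the same share was between 1.04% and 3.82% for each other library. Claudin values that rest on this library are given with and without it. The epithelial markers EPCAM, CDH1 and KRT19 were high in all 6 libraries, but KRT8 and KRT18, keratins that such cells use, were listed at 0 in all 6, so a listed 0 is not read here as absence of a transcript. Of 5 fibroblast markers only COL1A1 reached a mean of 1 FPKM, with DCN at 0 in every library and LUM at 0 in the iGLI2 group, and the summed level of the list was 1.35 to 1.57 FPKM in iEV and 2.30 to 3.01 FPKM in iGLI2. Of 5 immune markers CD14 and LYZ reached that mean, with sums of 15.5 to 18.5 FPKM in iEV and 7.51 to 15.6 FPKM in iGLI2, and none of 5 endothelial markers did, with sums of 0.487 to 0.537 and 0.467 to 0.654 FPKM. EPCAM (log2 fold change 0.37, limma adjusted p = 0.00709), CDH1 (0.37, 0.0169) and COL1A1 (0.61, 0.0110) were called higher in iGLI2. CD14 was called lower (-1.11, limma adjusted p = 0.00274), and KRT19 (-0.18, 0.195) and LYZ (-0.54, 0.331) were not called. The CDH1 call did not hold with every library left out (limma adjusted p up to 0.0775). Over all tested genes 21.9% were called. The part of these markers in the claudin results was not tested.

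YAPC cells carried mainly CLDN4, CLDN7, CLDN12 and CLDN3 mRNA. In the iEV libraries the order of the mean levels in FPKM, from high to low, was CLDN4, CLDN7, CLDN12, CLDN3, CLDN10, CLDN23, CLDN1, CLDN15, CLDN18 and CLDN2, and the ranges of all neighbours in this order lay apart. In the iGLI2 libraries CLDN10 stood above CLDN3 and CLDN15 stood above CLDN1, and the ranges of CLDN7 and CLDN12 overlapped while those of the other neighbours lay apart. Of the 10 members, 9 passed the minimum of 1 FPKM, and CLDN2 did not. CLDN10, CLDN12 and CLDN18 rose and CLDN1 and CLDN7 fell, which makes 5 of the 9 tested members called, against 21.9% of all tested genes. In the upward direction this was 3 members against 10.1% of all genes, and in the downward direction 2 members against 11.8%. CLDN18 passed the minimum only through its iGLI2 level. Without any minimum all 10 members were tested, 3 rose and 1 fell. The median log2 fold change of the 9 tested members was -0.22, beside -0.01 over all tested genes. In bulk RNA, fewer cells that use a gene and less of its RNA per cell cannot be told apart, and this holds for every value below.

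**Figure D1:**
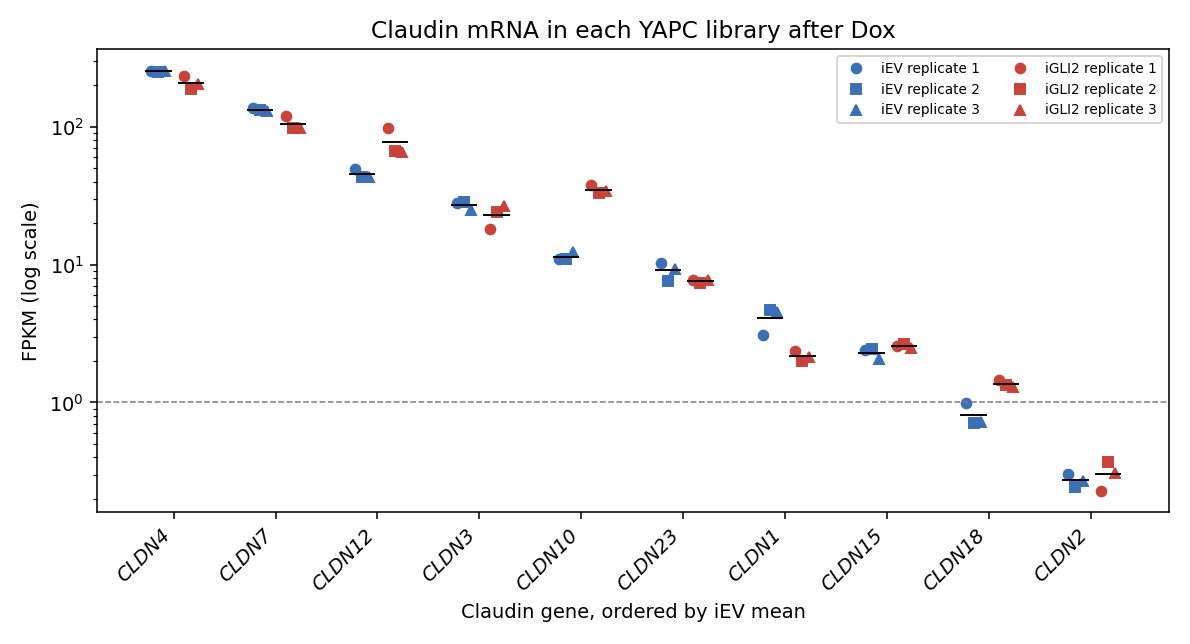
FPKM of the 10 claudins in each library on a log axis, with iEV in blue, iGLI2 in red, the marker shape giving the replicate and a black bar at each group mean (n = 3); the dashed line marks 1 FPKM. CLDN10 moves from 11.4 to 34.95 FPKM and passes CLDN3, and CLDN2 stays under 1 FPKM in every library.

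CLDN10 showed the largest difference of the 9 tested members. Its product forms ion pores, and its alternative first exons give a form that passes anions and a form that passes cations. The gene lies on chromosome 13 of hg19, on the plus strand, from 96085858 to 96232013 in the GENCODE annotation. The RefSeq promoter table (GRCh38.p14) holds windows for 9 of the 10 members, with 13 starts in all, and these windows were placed on GRCh37 by exact match. The table holds an upstream and a downstream start of CLDN10. The 250 bases before the downstream start are shown because they belong to the member that rose most, and because their composition differs from that of the window of the upstream start. They overlap no annotated exon and are written 5′ to 3′ on the plus strand, all in lower case since neither of the motifs searched below matched:
CLDN10 downstream start, chr13:96204724-96204973: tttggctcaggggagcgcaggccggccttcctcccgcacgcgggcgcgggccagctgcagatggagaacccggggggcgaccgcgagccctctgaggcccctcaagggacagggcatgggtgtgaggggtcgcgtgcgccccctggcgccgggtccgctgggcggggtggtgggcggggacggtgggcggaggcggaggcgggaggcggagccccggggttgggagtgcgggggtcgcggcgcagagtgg
This stretch is 78% G or C and holds 29 CpG dinucleotides, whereas the 250 bases before the upstream start, some of which are annotated as CLDN10 exon, are 39.6% G or C with 9 CpG. The medians over the 35116 promoter windows of the table are 58% and 11. Gene-level FPKM do not tell the upstream and downstream starts apart, so the start that carried the rise of CLDN10 is not known.

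CLDN10 was at 10.9, 10.9 and 12.4 FPKM in the iEV libraries and at 37.5, 33.2 and 34.2 FPKM in the iGLI2 libraries. Every iGLI2 library lay far above every iEV library, and the spread within each group was small. The mean rose from 11.4 ± 0.833 FPKM to 34.95 ± 2.27 FPKM (SD, n = 3 each). The log2 fold change was 1.54 (SE 0.08, 95% interval 1.34 to 1.73, limma adjusted p = 2.54e-04). Ranked by log2 fold change, CLDN10 was number 228 from the top of the 12493 tested genes. Leaving out any 1 library gave 1.49 to 1.59. The table gives CLDN10 a locus that it shares with DZIP1, a gene of cilia on the opposite strand, and with the antisense transcript CLDN10-AS1, both named here after their values were seen. Exons of CLDN10 and DZIP1 share 1558 bases in the GENCODE annotation, and the library kit named in the labels does not record strand, so reads from these shared bases cannot be told apart. DZIP1 was at 0.735, 0.796 and 0.709 FPKM in iEV and at 1.47, 1.89 and 1.80 FPKM in iGLI2 (log2 fold change 0.64, limma adjusted p = 0.00844), and it passed the minimum only through its iGLI2 level. CLDN10-AS1 was at 0.561, 0.521 and 0.727 FPKM against 1.27, 1.11 and 1.63 FPKM and was under the minimum for a test.

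CLDN2 and CLDN15 also form pores, and both build channels for cations in the gut. CLDN15 lies on chromosome 7 of hg19 at 100875373 to 100882101 as the table gives it. It was at 2.39, 2.43 and 2.07 FPKM in iEV and at 2.58, 2.63 and 2.48 FPKM in iGLI2. The groups did not overlap, but the difference was small and not called (log2 fold change 0.11, 95% interval -0.08 to 0.30, limma adjusted p = 0.354). It came to 0.06 both without iEV replicate 3 and with quantile normalization. CLDN2 lies on the X chromosome at 106143293 to 106174091, a locus that it shares with RIPPLY1 in the table and where exons on opposite strands share 341 bases. Its level was 0.303, 0.242 and 0.270 FPKM in iEV and 0.227, 0.367 and 0.308 FPKM in iGLI2, so the groups overlapped at a level under the minimum for a test. CLDN10, CLDN15 and CLDN2 therefore did not move alike, since CLDN10 rose, CLDN15 was not called and CLDN2 stayed under 1 FPKM.

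CLDN12 and CLDN18 also rose. CLDN12, which differs from other claudins in lacking the tail by which they bind scaffold proteins of the junction, lies on chromosome 7 at 90032648 to 90045268. The gene is longer in the GENCODE annotation, from 90013035 to 90142716. There its exons share 347 bases with GTPBP10, 531 with PTTG1IP2 and 201 with CDK14, all on the same strand. The expression table gives CLDN12 a locus of its own, so whether reads from these shared bases entered its level is not known. It was at 49.5, 43.5 and 42.8 FPKM in iEV and at 98.3, 66.6 and 65.7 FPKM in iGLI2. All iGLI2 libraries were above all iEV libraries, and iGLI2 replicate 1 was much the highest. The mean rose from 45.3 ± 3.66 FPKM to 76.9 ± 18.6 FPKM (SD, n = 3 each). The log2 fold change was 0.73 (SE 0.17, 95% interval 0.31 to 1.14, limma adjusted p = 0.0306). Without iGLI2 replicate 1 the log2 fold change was 0.54 and the gene was still called (limma adjusted p = 0.00829). Without any single one of the other 5 libraries it was 0.69 to 0.83 and the call was lost, with limma adjusted p between 0.0539 and 0.112.

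CLDN18, the stomach claudin, lies on chromosome 3 at 137717658 to 137752494. It was at 0.990, 0.705 and 0.721 FPKM in iEV and at 1.45, 1.35 and 1.28 FPKM in iGLI2. These low values did not overlap. The mean rose from 0.805 ± 0.160 FPKM to 1.36 ± 0.0823 FPKM (SD, n = 3 each). The log2 fold change was 0.39 (SE 0.10, 95% interval 0.13 to 0.64, limma adjusted p = 0.0456). The call was lost without iEV replicate 2 (limma adjusted p = 0.126), iEV replicate 3 (0.104), iGLI2 replicate 2 (0.0929) or iGLI2 replicate 3 (0.0767). It was also lost with a pseudocount of 0.1 (limma adjusted p = 0.0611), with quantile normalization (0.105) and with the sample code as a block (0.0789). CLDN18 has separate first exons for its lung and stomach forms, which gene-level FPKM do not tell apart.

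CLDN4 and CLDN7, the most abundant claudins of the line, were both lower in every iGLI2 library. CLDN4, with CLDN3 a receptor for the enterotoxin of Clostridium perfringens, lies on chromosome 7 at 73245193 to 73247023. It was at 255, 250 and 256 FPKM in iEV and at 231, 188 and 203 FPKM in iGLI2. The groups did not overlap, and iGLI2 replicate 1 lay closest to iEV. The means were 254 ± 3.00 FPKM and 207 ± 22.2 FPKM (SD, n = 3 each), and the difference missed the threshold (log2 fold change -0.30, SE 0.09, 95% interval -0.51 to -0.08, limma adjusted p = 0.0628). Without iGLI2 replicate 1 it was called, at -0.38 on the log2 scale (limma adjusted p = 0.00730). With quantile normalization it was -0.18 (limma adjusted p = 0.329).

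CLDN7, a barrier claudin that binds the adhesion protein EPCAM, lies on chromosome 17, on the minus strand, from 7163222 to 7167302 in the GENCODE annotation. It was at 137, 132 and 129 FPKM in iEV and at 119, 98.6 and 98.1 FPKM in iGLI2. Here too iGLI2 replicate 1 lay between the other iGLI2 libraries and iEV, and the groups did not overlap. The mean went from 133 ± 3.66 FPKM to 105 ± 12.1 FPKM (SD, n = 3 each). The log2 fold change was -0.33 (SE 0.09, 95% interval -0.56 to -0.11), and the limma adjusted p of 0.04999 lay just under the threshold. Without iGLI2 replicate 1 the log2 fold change was -0.43 (limma adjusted p = 0.00356). Without any single one of the other 5 libraries it was -0.35 to -0.29 and the call was lost (limma adjusted p between 0.119 and 0.153), and it was lost under several other settings as well. In the table CLDN7 shares a locus with ELP5, a subunit of the Elongator complex on the opposite strand whose exons share 38 bases with it. In the GENCODE annotation another protein-coding gene on the same strand shares 269 bases with the exons of CLDN7, so reads there are uncertain. ELP5, named after its values were seen, was at 17.9 ± 0.390 FPKM in iEV and 16.1 ± 0.762 FPKM in iGLI2 (SD, n = 3 each) and was not called (limma adjusted p = 0.131).

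CLDN1 fell most among the members. It is a barrier claudin, best known for the water barrier of the skin, and lies on chromosome 3 at 190023490 to 190040235. It was at 3.07, 4.71 and 4.50 FPKM in iEV and at 2.37, 2.01 and 2.12 FPKM in iGLI2. All iGLI2 libraries were below all iEV libraries, with iEV replicate 1 the nearest to them. The mean fell from 4.09 ± 0.893 FPKM to 2.17 ± 0.180 FPKM (SD, n = 3 each). The log2 fold change was -0.67 (SE 0.15, 95% interval -1.03 to -0.32, limma adjusted p = 0.0241). Leaving out any 1 library gave -0.83 to -0.58, and the call was lost without iEV replicate 2 (limma adjusted p = 0.0880), iEV replicate 3 (0.0921), iGLI2 replicate 2 (0.0891) or iGLI2 replicate 3 (0.0809).

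CLDN3 and CLDN23 were not called. CLDN3, a barrier claudin, lies on chromosome 7 at 73183327 to 73184600 and was at 28.0, 28.2 and 24.9 FPKM in iEV and at 18.1, 24.0 and 26.6 FPKM in iGLI2. The groups overlapped, and iGLI2 replicate 1 was the lowest library. The log2 fold change was -0.25 (95% interval -0.60 to 0.11, limma adjusted p = 0.291) and came to -0.09 without iGLI2 replicate 1. CLDN23, on chromosome 8 at 8559666 to 8561617, was at 10.4, 7.63 and 9.34 FPKM in iEV and at 7.79, 7.38 and 7.69 FPKM in iGLI2. A pseudogene on the same strand shares 1566 bases with its exons in the GENCODE annotation, so its level is uncertain. Its groups overlapped through iEV replicate 2, with a log2 fold change of -0.22 (95% interval -0.49 to 0.04, limma adjusted p = 0.205), which came to -0.13 without iEV replicate 1. These intervals leave room for changes of the size seen for CLDN7. In all, 7 of the 9 tested members had groups that did not overlap, against 42% of all tested genes. Of these 4 were higher in iGLI2 (19.2% of all genes) and 3 were lower (22.8% of all genes). The 4 include CLDN18, which passed the minimum only through its iGLI2 level, so its place in this count partly follows from the minimum.

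**Figure D2:**
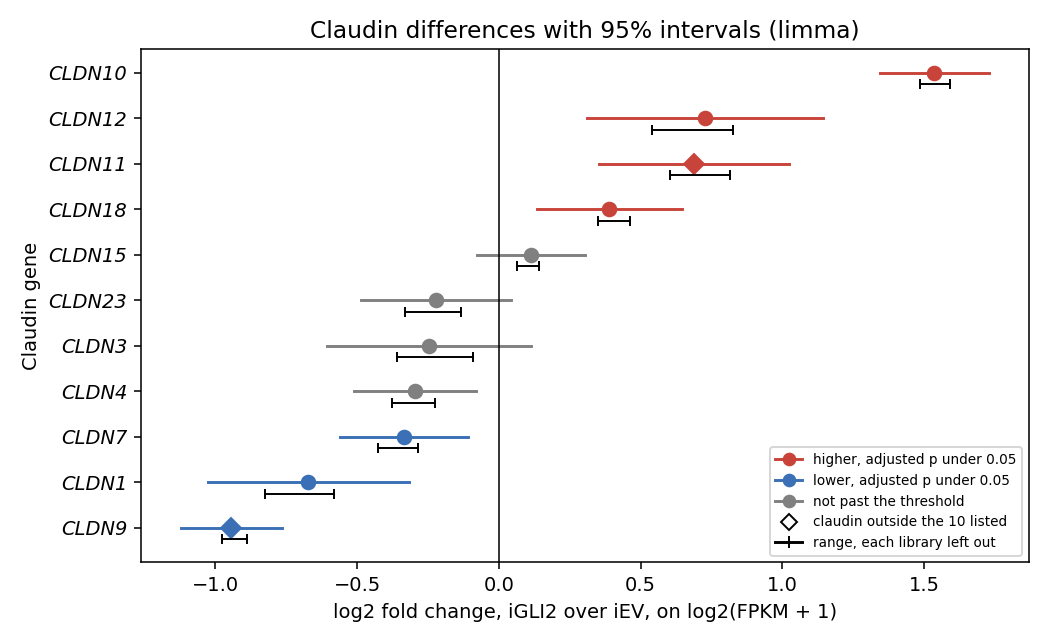
Log2 fold change of iGLI2 over iEV on log2(FPKM + 1) for the tested claudins, with 95% intervals from limma and, in black below each, the range with each library left out; red and blue mark called genes, grey those not called, and diamonds CLDN9 and CLDN11, which are outside the list. CLDN10 lies at 1.54 and CLDN1 at -0.67, and the intervals of CLDN3, CLDN15 and CLDN23 cross 0.

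The mixture of claudin mRNA lay apart between the groups, while the totals overlapped. FPKM summed over the 10 members was 497, 480 and 482 in iEV and 519, 424 and 441 in iGLI2, so the sums overlapped, with iGLI2 replicate 1 the highest of all. CLDN4 and CLDN7 together made up 77.4%, 78.1% and 78.4% of the summed FPKM of all 24 claudins in the iEV libraries and 66.8%, 66.5% and 67.1% in the iGLI2 libraries. This share was tight within each group, and it was alike in iGLI2 replicate 1 and the other iGLI2 libraries although their levels differed. CLDN12 held 9.14% ± 0.569 of the claudin sum in iEV and 16.3% ± 2.15 in iGLI2, and CLDN10 held 2.30% ± 0.188 and 7.49% ± 0.302 (SD, n = 3 each). CLDN3 held 5.46% ± 0.363 and 4.99% ± 1.35 (SD, n = 3 each), values that lie within the spread of the iGLI2 group. Since the shares are taken within a library, they do not depend on how the libraries were scaled against each other. No test was made of these sums and shares.

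**Figure D3:**
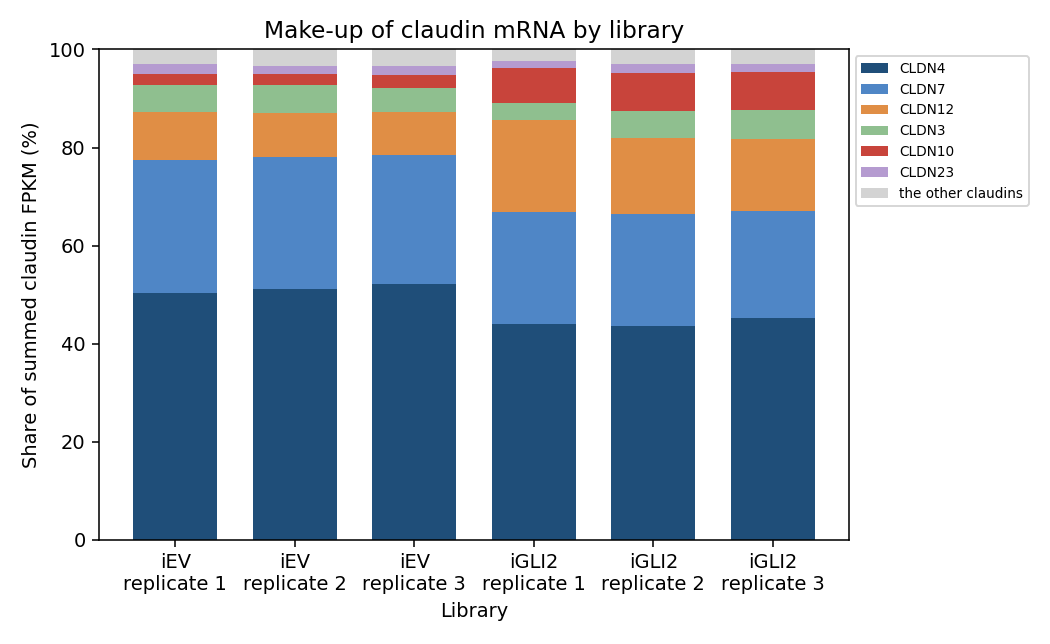
Share of the summed claudin FPKM held by the named claudins in each of the 6 libraries, as stacked bars from 0 to 100%. CLDN4 and CLDN7 together hold 77.4% to 78.4% in iEV and 66.5% to 67.1% in iGLI2, with larger shares for CLDN12 and CLDN10 in iGLI2.

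Among the 14 claudins outside the list, CLDN9 and CLDN11 reached a mean of 1 FPKM, and both were called, against 21.9% of all tested genes. CLDN9, known from the hair cells of the inner ear, was at 6.07, 5.93 and 5.87 FPKM in iEV and at 2.73, 2.35 and 2.78 FPKM in iGLI2. It fell by 0.94 on the log2 scale (SE 0.07, limma adjusted p = 8.04e-04), with -0.98 to -0.89 when each library was left out. CLDN11, a claudin of myelin and of the testis, was at 0.731, 0.845 and 0.922 FPKM in iEV and at 1.47, 2.31 and 2.14 FPKM in iGLI2. It rose by 0.69 (SE 0.14, limma adjusted p = 0.0184), and like CLDN18 it passed the minimum only through iGLI2. Its exons share 683 bases with another annotated gene on the same strand, so its level is uncertain. That call was lost without any library but iGLI2 replicate 1 (limma adjusted p between 0.0504 and 0.0664). The other 12 claudins were under the minimum, and CLDN8, CLDN17 and CLDN25 were listed at 0 in all 6 libraries.

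The promoter windows of the members were searched on both strands for a consensus site of GLI proteins and for an E-box that proteins of the SNAIL and ZEB families bind. The GLI site, spelled GACCACCCA and TGGGTGGTC on the other strand, occurred in 70 of the 35116 windows (0.199%) and in none of the 13 windows of the claudins. This says only that these letters are not in the 250 bases searched. The E-box, spelled CAGGTG and CACCTG on the other strand, occurred in 17.5% of all windows and in 2 of the 13 claudin windows, those of a CLDN7 start and a CLDN18 start. The CLDN7 window held 4 of them, a number reached by 43 of all windows (0.122%). It held the most E-boxes of the 13 claudin windows, so this share describes the highest of them and is not a test. All 250 bases of this CLDN7 window are annotated as CLDN7 exon, so they are not only sequence upstream of the gene. The CLDN4 window, which held no E-box, is likewise all CLDN4 exon, and part of the CLDN18 window with the E-box is annotated as CLDN18 exon. The matches are shown with the bases around them, on the strand of each gene with the E-box in capitals:
CLDN7, chr17:7165954-7165983: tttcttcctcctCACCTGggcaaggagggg
CLDN7, chr17:7165915-7165944: cgacttccggttCAGGTGagtgtcccttcg
CLDN7, chr17:7165798-7165827: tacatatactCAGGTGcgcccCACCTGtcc
CLDN18, chr3:137717547-137717576: gtagggcaagccCAGGTGgcactggtgagt
The last CLDN7 stretch ends at the base before that start and holds a pair of E-boxes. CLDN7 and CLDN18 each have another start in the promoter table, whose window held none. Gene-level FPKM do not tell these starts apart, and a link between the E-boxes and the changes was not tested. A match is a description of the sequence and not a bound site.

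Most of the listed transcription factors known to act on claudin genes were under the minimum. Of 9 regulators listed, 3 passed it. Of these 1 rose and 1 fell, where 21.9% of all tested genes were called. SNAI2 (Slug), a repressor of epithelial genes that binds E-boxes, was at a mean of 6.96 ± 1.29 FPKM in iEV (SD, n = 3) and at 9.23, 12.1 and 12.0 FPKM in iGLI2. It rose by 0.61 on the log2 scale (limma adjusted p = 0.0379), a call that was lost without iEV replicate 2 or 3 or iGLI2 replicate 2 or 3 (0.122 to 0.131), with no minimum (0.0552) or with the sample code as a block (0.0674). ELF3, an epithelial ETS factor, fell from 85.0 ± 0.0798 FPKM to 63.6, 56.5 and 58.2 FPKM (log2 fold change -0.51, limma adjusted p = 0.00391). GRHL2, an activator of CLDN4 in other epithelia, was not called (log2 fold change -0.12, limma adjusted p = 0.435, and -0.03 without iGLI2 replicate 1). SNAI1, ZEB1, ZEB2, CDX2 and HNF4A were under the minimum and TWIST1 was listed at 0. ZEB1 was at 0.560, 0.498 and 0.405 FPKM in iEV and at 0.398, 0.321 and 0.301 FPKM in iGLI2. ZEB1 and HNF4A were lower in every iGLI2 library, while the groups of SNAI1, ZEB2 and CDX2 overlapped. None of these was tested at such low levels.

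Proteins that bind claudins or process them were compared next. Of 5 listed partners 4 were tested, 1 rose and 1 fell, where 21.9% of all tested genes were called, with a median log2 fold change of 0.03. EPCAM, which binds CLDN7 and protects it from degradation, was at 405 ± 11.4 FPKM in iEV (SD, n = 3) and at 526, 521 and 523 FPKM in iGLI2. It rose by 0.37 (limma adjusted p = 0.00709), while CLDN7 was lower in the same libraries. SPINT1, an inhibitor of the proteases that cut EPCAM, fell by 0.30 (limma adjusted p = 0.0277), and ST14 (matriptase), such a protease, was not called at -0.33 (limma adjusted p = 0.0775) but was at -0.22 without iGLI2 replicate 1 (0.0241). The SPINT1 call was lost without any iEV library or without iGLI2 replicate 2 (limma adjusted p between 0.0546 and 0.112) and with the sample code as a block (0.0565).

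Of 37 other genes of the tight junction, 31 were tested, 3 rose and 4 fell, with a median log2 fold change of -0.09. Over all tested genes 21.9% were called, so this count is near the background. Among 10 transmembrane proteins 8 were tested and 1 was called. CXADR, an adhesion protein that viruses use as a receptor, was at 2.97 ± 1.03 FPKM in iEV (SD, n = 3) and at 7.88, 5.36 and 5.21 FPKM in iGLI2 (log2 fold change 0.86, limma adjusted p = 0.0422), a call lost without any library but iEV replicate 1 (0.0728 to 0.142), with no minimum (0.0620) or with quantile normalization (0.0505). OCLN (occludin) and MARVELD2 (tricellulin), which run in the strands beside the claudins, were not called, with log2 fold changes of 0.17 (limma adjusted p = 0.454) and 0.09 (0.529). With each library left out these were 0.06 to 0.30 for OCLN, lowest without iGLI2 replicate 1 and highest without iEV replicate 1, and 0.03 to 0.19 for MARVELD2, lowest without iEV replicate 3 and highest without iEV replicate 1.

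Among 15 scaffold proteins, which tie claudins to actin, 14 were tested, 2 rose (10.1% of all genes did) and 3 fell (11.8% of all genes), with a median of -0.17. CGN (cingulin) fell from 15.2 ± 0.568 FPKM (SD, n = 3) to 7.46, 7.31 and 7.47 FPKM, or -0.94 on the log2 scale (limma adjusted p = 3.51e-04), and its paralogue CGNL1 rose from 1.78 ± 0.0978 FPKM to 2.96, 3.49 and 3.63 FPKM, or 0.65 (limma adjusted p = 0.00523). In the same way AMOTL1 rose by 0.51 (limma adjusted p = 0.00680) and AMOTL2 fell by 0.57 (0.0158), a call lost without iEV replicate 2 or 3 or iGLI2 replicate 2 (0.0582 to 0.0739). Of proteins of the ZO family, which bind the tails of claudins, TJP3 fell by 0.42 (limma adjusted p = 0.0442), while TJP1 was not called at 0.02 (0.893). The TJP3 call was lost without any library but iGLI2 replicate 3 (limma adjusted p between 0.0533 and 0.150), with no minimum (0.0714) or with a minimum of 5 FPKM (0.0656). Among 12 polarity proteins 9 were tested and PARD6B alone was called, at -0.57 (limma adjusted p = 0.0266), a call lost without any library but iGLI2 replicate 1 (0.0595 to 0.103).

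**Figure D4:**
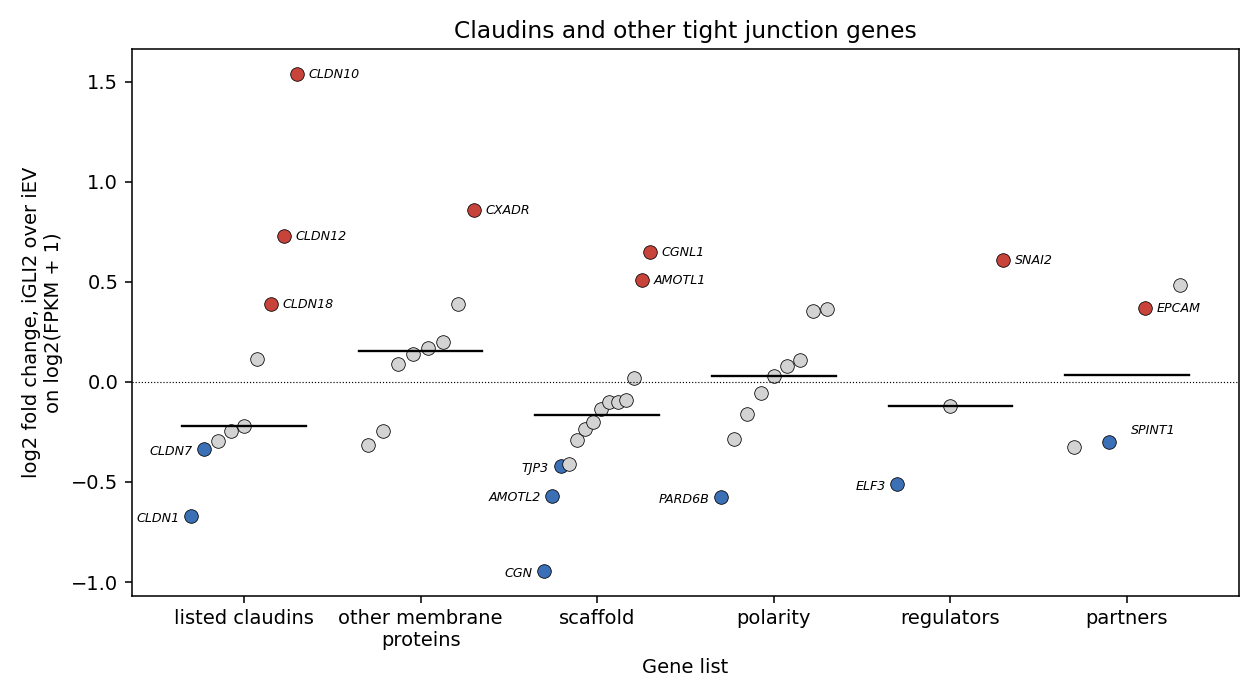
Log2 fold change of iGLI2 over iEV on log2(FPKM + 1) for each tested gene of the claudins and the other lists; red and blue mark called genes, grey those not called, and black bars the medians. The claudins span -0.67 to 1.54, and the largest decrease of the genes plotted is CGN at -0.94.

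The genes with a pattern over the 6 libraries most like that of CLDN10 and CLDN1 were sought among tested genes that reached a mean of 5 FPKM, by the root mean square difference of log2(FPKM + 1) after each gene's iEV mean was subtracted. Nearest to CLDN10 were MLEC, a sugar-binding protein of the endoplasmic reticulum (0.0725 log2 units), AKAP12, a scaffold for protein kinase A (0.0944), and SSFA2 (0.1). MLEC was at 59.4, 60.2 and 64.9 FPKM in iEV and at 208, 187 and 183 FPKM in iGLI2, and as for CLDN10 its highest library was iGLI2 replicate 1. Nearest to CLDN1 were BEND3 (0.0673), DENND3 (0.0732) and CPVL (0.0817). Like CLDN1, each of these had its lowest iEV value in replicate 1. All of these genes were picked for likeness over the same libraries, so such shared features follow from the choice.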

How the data were processed

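RNA of YAPC cells in 3 iEV and 3 iGLI2 samples was sequenced by the authors after library preparation with a TruSeq RNA kit. Per the submitters' processing notes, TopHat2 and Cuffdiff 2.1.1 were run against hg19, and the deposited values are FPKM per gene and library. The annotation used is not given in the sources used here. FPKM depend on what else fills a library, and MIR4461 alone holds 35.7% to 45.4% of the summed FPKM, so small RNA genes were left out in an alternative. This is not its share of the fragments, since FPKM are divided by transcript length.

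Of 27024 entries, 1252 outside the primary chromosomes and 330 lower entries of a repeated name were dropped, which left 25442 genes. All value columns belong to a labelled sample. The 12493 genes that reached a mean of 1 FPKM were fitted with limma 3.58.1 in R 4.3.3 on log2(FPKM + 1), with condition as the only term and a mean-variance trend, and p-values were two-sided and adjusted by Benjamini-Hochberg. The fit was also run on simulated data with independent noise, where 86% of planted 2-fold and 95% of planted 4-fold changes were called. That simulation held no smaller changes and no library that stands apart, so it does not speak to calls of that kind. Intervals are 95%. Annotation came from GENCODE release 44 on GRCh37 and promoters from RefSeq. No read depth can be had from these values, so no counting error is given.

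The members, lists and tests were chosen with earlier results of these data known, and 3 genes first listed are not reported here and are left out of the lists' counts. Named genes were all members, other claudins with a mean of at least 1 FPKM, up to 6 called genes per list by smallest p with members of known role as values, GLI2, and the 3 genes most like CLDN10 and CLDN1. Alternatives were another pseudocount, other minimums, other scalings, no trend, robust moderation, replicate and sample code blocks, and leaving out each library. Those for sums and shares were chosen after seeing the data.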

Additional observations from a re-analysis of the deposited data

How the results depend on the processing

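CLDN10 was called under every alternative, and none of the 9 tested members, CLDN9 and CLDN11 changed direction. CLDN7 was lost with no minimum (log2 fold change -0.33), a minimum of 5 FPKM (-0.33), no trend (-0.33), the sample code block (-0.33), upper quartile scaling (-0.32), quantile normalization (-0.32) and small RNA genes left out (-0.26). CLDN18 was lost with a pseudocount of 0.1 (0.70), quantile normalization (0.31) and the sample code block (0.39). The members that fell went from 2 to 1 with no minimum, upper quartile scaling, quantile normalization, small RNA genes left out, no trend or the sample code block, and to 0 with a minimum of 5 FPKM, where fewer members were tested. With each library left out the log2 fold change was -0.83 to -0.58 for CLDN1, -0.38 to -0.23 for CLDN4, -0.43 to -0.29 for CLDN7, 0.54 to 0.83 for CLDN12 and 0.35 to 0.46 for CLDN18, and 1 to 3 members rose and 0 to 3 fell. Over all genes 1262 rose and 1480 fell, 824 and 1090 with a minimum of 5 FPKM, and 608 to 1855 and 615 to 1898 with each library left out, where fits have fewer samples. With small RNA genes left out 1780 rose and 1222 fell, a split of 59.3% upward against 46.0%. The other tight junction genes that rose and fell numbered 3 and 4, 1 and 2 with a minimum of 5 FPKM, and 2 to 5 and 1 to 6 with each library left out. With the replicate block 1809 genes rose and 2119 fell, 8 tight junction genes fell, SNAI2 was lost (limma adjusted p = 0.0703), and no call of a claudin changed. The labels do not say whether same-numbered libraries were paired. Their deviations correlated at 0.204, 0.0919 and 0.0276, and not every library correlated best with its own number. These values do not settle whether the libraries are paired. Uncalled genes that changed sign were PARD6A (0.00597 with small RNA genes left out) and, over libraries left out, TJP1 (-0.0319 to 0.0759), SYMPK (-0.218 to 0.124), CRB3 (-0.0284 to 0.0759) and PRKCI (-0.00421 to 0.133). The log2 ratio of the summed members was -0.08, and -0.17 to -0.02 with each library left out. The cause of these changes was not tested. Depth is unknown, which limits what can be said of low claudins such as CLDN2 and CLDN18.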
